A study of Mus musculus with 6 samples.

Results

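The genes described here are those that copy DNA in S phase: 42 genes for origin licensing, the replicative helicase, the clamp and polymerases, nucleotide supply, copying of chromatin, and the cyclins and transcription factors that drive entry into S phase. They were chosen by name from knowledge of the pathway, with earlier results of these data known. On the array 41 of the 42 had a probe set annotated with their symbol alone, out of 18193 genes tested, and Chaf1a was not analysed here. Each gene is represented by its brightest probe set, the one with the highest mean log2 expression value over the 6 arrays. No filter on low values was applied, so every one of the 41 was tested.

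RNA came from SVI cells, a conditionally immortalized line of mouse podocytes, the epithelial cells that cover the glomerular capillaries. One group of 3 arrays held differentiated cells that had been stretched cyclically in both axes for 3 days, with 0.5 cycles per second (0.5 Hz) and at most 5% linear strain. The other group of 3 held differentiated cells left unstretched. Both groups were differentiated at 38 °C in RPMI medium with 10% fetal bovine serum and came from the same line, so the results describe 1 cell line. The labels do not say how the line was immortalized, and podocyte lines of this type often carry a temperature-sensitive large T antigen, a protein that binds the retinoblastoma family. The series states that independent batches were used but not what a batch was. The p-values measure array-to-array spread, part of which may be technical.

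In G1 phase the origin recognition complex, Cdc6 and Cdt1 load the MCM helicase onto DNA, which licenses an origin for firing once per cycle. Cyclin E with its kinase, and later Cdc45 and the GINS complex, turn the loaded helicase into an active fork, where a sliding clamp and the polymerases follow. Many of these genes are targets of E2F transcription factors, which retinoblastoma proteins hold in check in resting cells. Mature podocytes of the kidney are known as cells that seldom divide.

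The arrays were alike in overall level and differed slightly in spread. The SD over probe sets was 2.08 to 2.10 on stretched and 2.03 to 2.06 on unstretched arrays, and no pair of arrays of a group correlated below 0.993 across probe sets. For the beta-actin control, the log2 value of the 3′ probe set minus that of the 5′ one, a sign of RNA integrity, was 1.35, 1.30 and 1.25 on stretched and 1.57, 1.59 and 1.54 on unstretched arrays (exact permutation p = 0.1, two-sided and the lowest possible with 3 against 3). The Gapdh control difference averaged 0.16 ± 0.10 on stretched and 0.25 ± 0.07 on unstretched arrays (SD, n = 3 each, exact permutation p = 0.4). The part of RNA integrity in the results below was not tested. Of 6 podocyte markers measured, 4 lay above the median gene in mean level, while Nphs1 and Ptpro lay below it, at log2 values of 4.91 ± 0.24 and 4.20 ± 0.19 in stretched cells, against 5.01 ± 0.14 and 4.33 ± 0.22 in unstretched cells (SD, n = 3 each). One podocyte marker, Synpo, an actin-associated protein, was called lower (log2 change -0.45, limma adjusted p = 0.00412). The others were not called. Their log2 changes were 0.26 for Cd2ap, without overlap, 0.25 for Wt1, -0.22 for Podxl, -0.13 for Ptpro and -0.10 for Nphs1. The mean level of the 4 macrophage markers was lower in stretched cells (5.33 to 5.44) than in unstretched cells (5.77 to 5.89). Of them, Cd68 and Csf1r were called lower (log2 changes -0.89 and -0.50, limma adjusted p = 7.27e-04 and 0.0106). Ptprc and Adgre1 had log2 changes of -0.28 and -0.21, not called. Only 1 of the 4 macrophage markers, Csf1r, lay above the median gene in mean level. Of the endothelial markers 0 of 4 did, of the tubule markers 1 of 4, and of the mesangial markers 1 of 3. The mean of the 4 endothelial markers spanned 4.05 to 4.18 in stretched and 4.05 to 4.20 in unstretched cells. Without overlap, the mean of the 4 tubule markers (Lrp2, Cubn, Slc34a1 and Umod) was 5.76 to 5.84 in stretched and 5.61 to 5.63 in unstretched cells. Of these, Cubn was called higher (log2 change 0.49), and the other changes were 0.04 to 0.12, none called. The mean of the 3 mesangial markers was 6.07 to 6.16 in stretched and 6.03 to 6.05 in unstretched cells, also without overlap. There Pdgfrb was called higher (log2 change 0.41), while Itga8 changed by -0.16 and Des by 0.02, neither called. The part of these differences in the results was not tested, and in bulk RNA a change in the share of cells in S phase cannot be told apart from a change in RNA per cell.

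Stretched cells had higher mRNA levels of some replication genes, led by the licensing factor Cdc6. Of the 41 genes, 13 were called higher and 1, Chaf1b, was called lower at a Benjamini-Hochberg adjusted p under 0.05 (limma, adjusted over all 18193 genes). Among all genes 7.98% were called higher and 6.76% lower. The median log2 change, stretched minus unstretched, was 0.12 over the 41 genes and -0.02 over all genes. The median of the 41 was 0.048 under quantile normalization again and under cyclic loess, 0.15 with median centring, and 0.18 with all probe sets of a gene averaged. In 21 of the 41, the lowest stretched value exceeded the highest unstretched one, against 16.0% of all genes. In 2 of the 41, Mcm2 and Chaf1b, the highest stretched value was under the lowest unstretched one, against 16.6% of all genes. The count of genes called higher was 4 to 14 when 1 array was left out, with 4 without stretched replicate 3, 5 without stretched replicate 1, 7 without stretched replicate 2, and 6 without unstretched replicate 1 or 2. It was 8 when the arrays were quantile normalized again or scaled by cyclic loess.

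**Figure D1:**
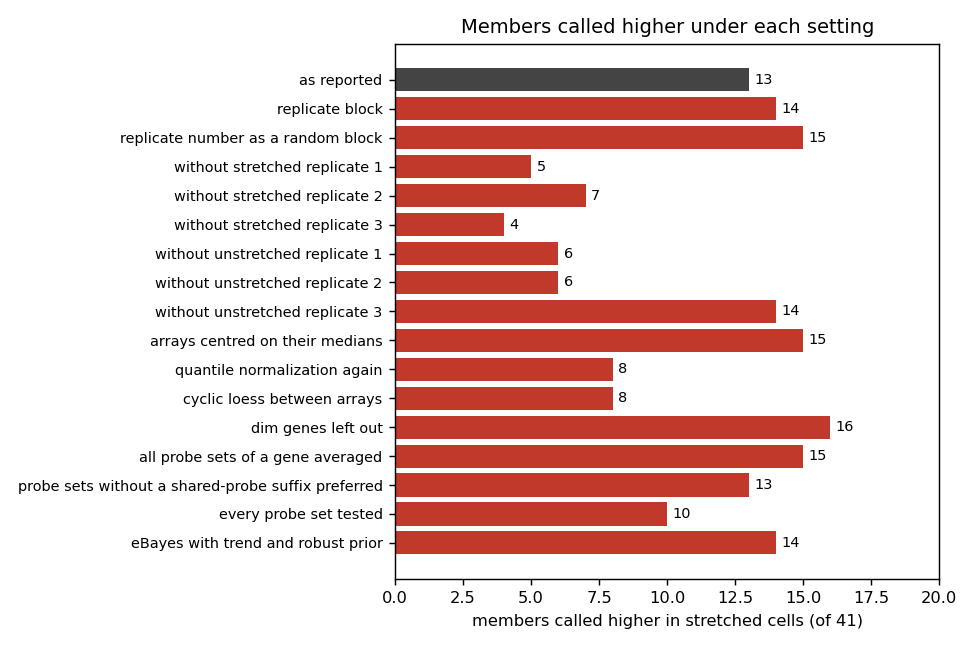
Number of the 41 genes called higher in stretched cells (horizontal axis) as reported and under each of the 16 alternative settings, down the page. The count is 13 as reported, lowest at 4 without stretched replicate 3 and highest at 16 with dim genes left out, a setting in which 17.1% of all genes tested were called higher.

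**Figure D2:**
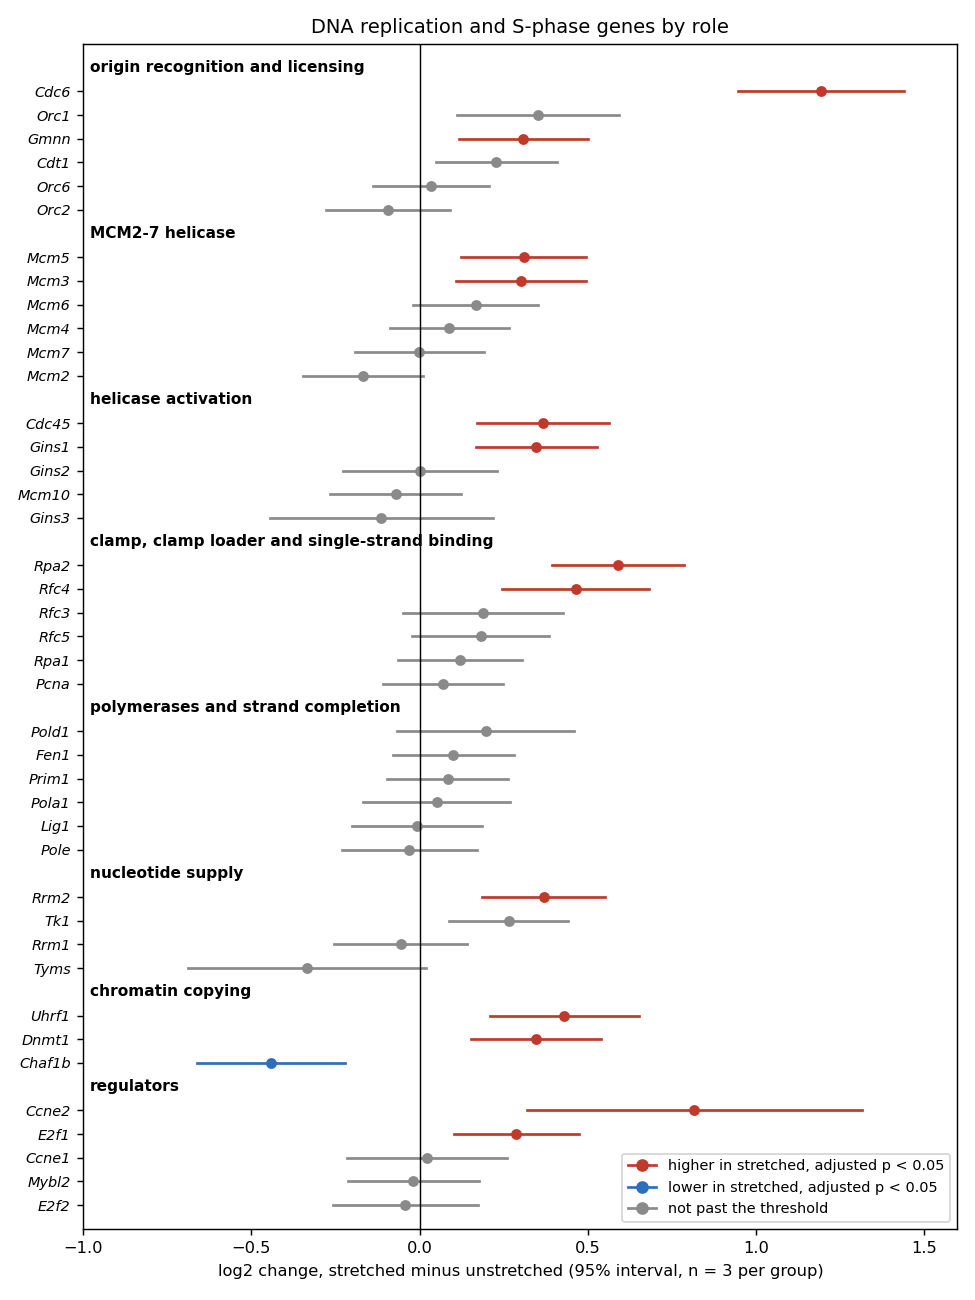
Log2 change of each of the 41 genes, stretched minus unstretched, with its 95% interval from limma (n = 3 arrays per group), grouped by role. Cdc6 has the largest change at 1.20, Ccne2 follows at 0.82, the other genes called higher lie between 0.29 and 0.59, and Chaf1b is the only gene called lower.

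The promoters of the genes were searched for E2F motifs, since many genes of the set are known E2F targets. In each RefSeq promoter (GRCm38.p6, 250 bases before to 50 bases after the start site), the E2F core motifs TTTCCCGC, TTTGGCGC, TTTCGCGC and TTTGCCGC were searched on both strands. A promoter was found for 35 of the 41 genes, and 15 of the 35 held a match, against 3.81% of the tested genes with a promoter and 2.60% of all 27025 genes in the table. The match was present in 5 of the 10 genes called higher, in 10 of the 24 not called, and not in Chaf1b. The shares of called and uncalled genes were not compared by a test. Because the 41 were chosen as S-phase genes, the share among the 35 describes the set and not its response to stretch. The 6 promoters shown are of called genes only: Cdc6, Mcm3, Mcm5 and Uhrf1 were called higher and hold a match, Rpa2 was called higher without one, and Chaf1b was called lower. None of the 24 genes not called is shown, although 10 of them hold a match. Capitals mark the E2F matches, and sequences run 5′ to 3′ along the gene.

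Cdc6, chr11:98907901-98908200, plus strand: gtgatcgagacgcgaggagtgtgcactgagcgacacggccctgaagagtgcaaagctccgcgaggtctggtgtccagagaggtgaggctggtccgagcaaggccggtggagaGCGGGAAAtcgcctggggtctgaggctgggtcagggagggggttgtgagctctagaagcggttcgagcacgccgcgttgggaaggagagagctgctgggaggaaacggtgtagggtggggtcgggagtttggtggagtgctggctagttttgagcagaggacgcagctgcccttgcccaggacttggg
Mcm3, chr1:20820263-20820562, minus strand: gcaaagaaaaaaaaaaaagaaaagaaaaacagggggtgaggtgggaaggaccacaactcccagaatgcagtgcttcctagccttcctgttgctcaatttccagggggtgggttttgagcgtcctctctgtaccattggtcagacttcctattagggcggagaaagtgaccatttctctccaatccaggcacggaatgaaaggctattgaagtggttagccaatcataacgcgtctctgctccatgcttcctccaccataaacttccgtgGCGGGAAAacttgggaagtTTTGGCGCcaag
Mcm5, chr8:75109259-75109558, plus strand: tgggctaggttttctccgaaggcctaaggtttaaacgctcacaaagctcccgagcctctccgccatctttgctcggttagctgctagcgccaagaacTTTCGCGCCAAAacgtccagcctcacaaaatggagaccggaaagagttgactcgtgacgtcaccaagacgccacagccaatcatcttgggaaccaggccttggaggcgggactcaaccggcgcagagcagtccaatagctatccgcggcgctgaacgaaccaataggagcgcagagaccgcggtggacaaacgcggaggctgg
Uhrf1, chr17:56304063-56304362, plus strand: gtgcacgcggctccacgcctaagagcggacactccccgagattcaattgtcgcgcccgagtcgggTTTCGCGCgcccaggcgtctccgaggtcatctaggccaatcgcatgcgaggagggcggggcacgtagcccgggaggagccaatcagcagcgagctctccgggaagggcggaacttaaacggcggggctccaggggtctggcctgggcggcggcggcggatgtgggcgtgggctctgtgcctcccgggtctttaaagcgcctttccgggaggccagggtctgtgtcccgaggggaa
Rpa2, chr4:132768110-132768409, plus strand: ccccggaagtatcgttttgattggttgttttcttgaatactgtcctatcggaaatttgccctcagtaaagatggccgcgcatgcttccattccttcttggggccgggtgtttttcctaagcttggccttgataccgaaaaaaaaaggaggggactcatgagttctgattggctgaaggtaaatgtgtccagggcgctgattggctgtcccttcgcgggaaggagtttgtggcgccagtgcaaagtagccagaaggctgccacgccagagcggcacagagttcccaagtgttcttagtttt
Chaf1b, chr16:93883651-93883950, plus strand: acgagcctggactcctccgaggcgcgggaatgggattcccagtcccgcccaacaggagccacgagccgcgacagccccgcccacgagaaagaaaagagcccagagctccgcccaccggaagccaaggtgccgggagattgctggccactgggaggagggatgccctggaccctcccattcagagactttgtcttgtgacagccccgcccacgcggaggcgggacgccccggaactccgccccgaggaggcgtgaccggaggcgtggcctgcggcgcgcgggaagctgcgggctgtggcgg

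The match in Cdc6 begins 138 bases upstream of the start site of its window. That of Uhrf1 begins 185 bases upstream of the start site of its own. Both windows lie inside the RefSeq gene, which begins further upstream, at 98907709 for Cdc6 and 56303337 for Uhrf1. Mcm5 holds an overlapping pair, on opposite strands, in 1 run of capitals that begins 153 bases upstream. In Mcm3 both matches lie downstream of the start, the nearer beginning 19 bases after it. No match in Rpa2 or Chaf1b says only that these letters are not in this window. The CCAAT box (CCAAT, either strand) was present in 22 of the 35 promoters, against 42.0% of tested genes, and the cell cycle homology motif TTTGAA, a mark of genes expressed later in the cycle, in 6 of the 35, against 15.7%.

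Licensing factors included the largest change. Cdc6, the ATPase that loads MCM rings at origins, had log2 values of 8.77, 8.73 and 8.86 in stretched cells, against 7.48, 7.44 and 7.84 in unstretched cells. The groups were separated by a wide gap, with unstretched replicate 3 nearest to the stretched values. Its level was 2.29-fold higher, a log2 change of 1.20 with an SE of 0.11 and a 95% interval of 0.95 to 1.44 (limma adjusted p = 9.97e-05). Geminin (Gmnn), the inhibitor that binds Cdt1 and blocks relicensing, rose too, with 9.92, 9.89 and 9.89 in stretched and 9.57, 9.49 and 9.71 in unstretched cells (log2 change 0.31, SE 0.09, limma adjusted p = 0.0362). The Gmnn call ended without any 1 stretched array or without unstretched replicate 1 or 2 (adjusted p = 0.0843 to 0.119), with quantile normalization again (0.0842) or cyclic loess (0.0833), and with every probe set tested (0.0520).

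The other licensing genes did not pass. Orc1, the large subunit of the origin recognition complex and the one that is most cell cycle regulated, had 7.87, 7.78 and 7.95 in stretched and 7.43, 7.37 and 7.74 in unstretched cells (log2 change 0.35, SE 0.11, limma adjusted p = 0.0541). Its groups did not overlap, and without unstretched replicate 3, the highest of its group, the adjusted p was 0.0102, against 0.0802 to 0.174 without any other array. A second, dimmer Orc1 probe set had a log2 change of -0.13, and with both averaged the value was 0.11 (limma adjusted p = 0.436). Cdt1, which brings the helicase to the origin, had a log2 change of 0.23 (limma adjusted p = 0.0907), with all stretched values above the unstretched ones. Orc2 and Orc6, further subunits of the complex, had log2 changes of -0.09 and 0.03 (limma adjusted p = 0.523 and 0.825). In this role 2 of 6 were called higher and 0 lower, and at unadjusted p under 0.05 the counts were 4 and 0, beside 2611 higher and 2446 lower among all 18193 genes.

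Within the MCM2-7 helicase, the ring that unwinds DNA at the fork, 2 of the 6 subunits were called higher and 0 lower by limma, also at unadjusted p under 0.05. Mcm3 had 10.40, 10.45 and 10.36 in stretched and 10.02, 10.07 and 10.22 in unstretched cells (log2 change 0.30, SE 0.09, limma adjusted p = 0.0415). Mcm5 had 10.89, 10.96 and 10.97 in stretched and 10.62, 10.56 and 10.73 in unstretched cells (log2 change 0.31, SE 0.08, limma adjusted p = 0.0321). Neither group pair overlapped, but the differences were small. Both calls ended without any 1 stretched array or without unstretched replicate 1 or 2 (adjusted p = 0.0846 to 0.135 for Mcm3 and 0.0740 to 0.104 for Mcm5). They also ended with quantile normalization again (0.119 and 0.108) and cyclic loess (0.104 and 0.0845), that of Mcm3 with every probe set tested (0.0585), and that of Mcm5 with probe sets averaged (0.149) or unsuffixed ones preferred (0.353). The log2 changes of Mcm2, Mcm4, Mcm6 and Mcm7 were -0.17, 0.09, 0.17 and -0.00, none past the threshold (limma adjusted p = 0.209, 0.525, 0.232 and 0.998).

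These values depended on which probe set stood for the gene. Dimmer probe sets of Mcm4, Mcm6 and Mcm7 were higher in stretched cells where the brightest showed little difference. For Mcm7, the brightest probe set read 12.48, 12.39 and 12.28 in stretched and 12.44, 12.38 and 12.34 in unstretched cells. Another read 10.76, 10.78 and 10.66 in stretched and 10.39, 10.28 and 10.22 in unstretched cells, without overlap (log2 change 0.43, limma adjusted p = 0.0119 over all probe sets). A further one changed by 0.42 (limma adjusted p = 0.0153). For Mcm6, the brightest read 11.14, 11.13 and 11.21 in stretched and 10.91 to 11.07 in unstretched cells, and a dimmer one read 9.86, 9.89 and 10.04 in stretched and 9.35, 9.08 and 9.42 in unstretched cells (log2 change 0.65, limma adjusted p = 0.00438). The second Mcm4 probe set changed by 0.56 (limma adjusted p = 0.00603). That of Mcm2 had a log2 change of 0.29, opposite in sign to the brightest one (limma adjusted p = 0.0555).

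The same held for genes of other roles. The 41 genes had 48 further probe sets, of which 15 were called higher and 0 lower when every probe set was tested with limma, against 8.53% and 3.43% of all probe sets that do not stand for their gene. Over every probe set of the array 6.47% were called higher. Of the genes not called by their brightest probe set, 8 had another called higher: Mcm4, Mcm6, Mcm7, Rfc3, Prim1, Pold1, Fen1 and E2f2. Of the 15 probe sets, 12 carry a suffix of the array maker for probes shared between transcripts of a gene or with other sequences (_a_at, _s_at or _x_at). With all probe sets of a gene averaged, the log2 change of Mcm7 was 0.28 (limma adjusted p = 0.0394), and those of Mcm4 (0.0195), Mcm6 (0.0315), Rfc3 (0.0423), Prim1 (0.0226) and Pold1 (0.0340) also passed. What sets the probe sets apart was not tested.

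**Figure D3:**
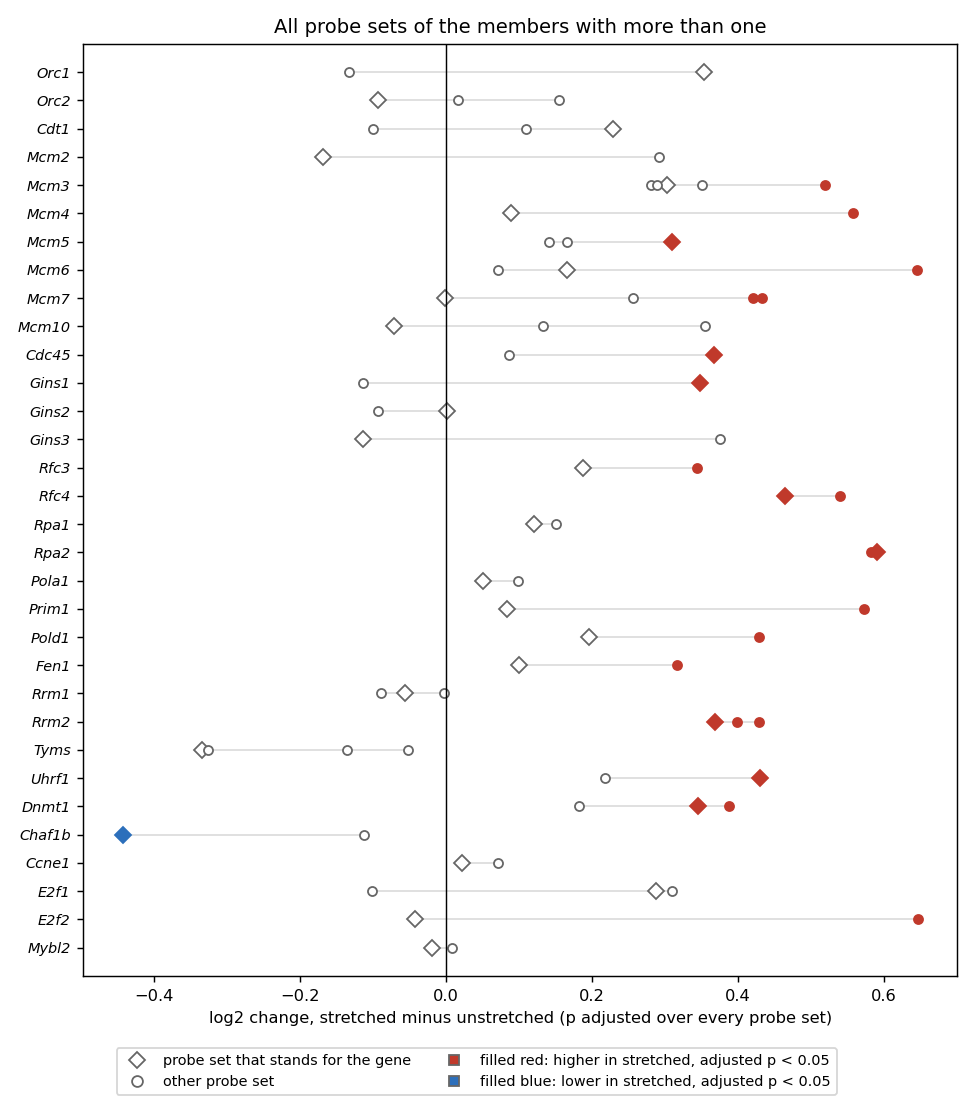
Log2 change, stretched minus unstretched, of every probe set of the 32 genes with more than 1, with the brightest as a diamond and the others as circles (filled where the limma adjusted p over every probe set is under 0.05). In Mcm4, Mcm6, Mcm7, Rfc3, Prim1, Pold1, Fen1 and E2f2 an open diamond, between -0.04 and 0.20, has a filled circle to its right, as has Mcm3, whose diamond at 0.30 is open when every probe set is tested.

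Of the factors that activate the helicase, 2 of 5 were called higher and 0 lower by limma, also at unadjusted p under 0.05. Cdc45, which joins MCM and GINS to form the active helicase, had 9.70, 9.59 and 9.64 in stretched and 9.30, 9.16 and 9.37 in unstretched cells (log2 change 0.37, SE 0.09, limma adjusted p = 0.0182). The GINS subunit Gins1 had 7.54, 7.49 and 7.46 in stretched and 7.10, 7.12 and 7.22 in unstretched cells (log2 change 0.35, SE 0.08, limma adjusted p = 0.0166). Every stretched value of both genes lay above every unstretched value. By their brightest probe sets the other GINS subunits did not pass: Gins2 had a log2 change of 0.00 (95% interval -0.23 to 0.23) and Gins3 of -0.11 (95% interval -0.45 to 0.22). A second Gins3 probe set had a log2 change of 0.38, also not past the threshold (limma adjusted p = 0.158 over all probe sets). Mcm10, which links the helicase to polymerase alpha, had a log2 change of -0.07 (limma adjusted p = 0.662). Leaving out stretched replicate 1, stretched replicate 3 or unstretched replicate 2 ended the Cdc45 call (adjusted p = 0.0794, 0.0582 and 0.0631), and leaving out stretched replicate 1 or 2 ended that of Gins1 (0.0736 and 0.0539). With all probe sets averaged neither passed (0.138 for Cdc45 and 0.357 for Gins1). The second Gins1 probe set had a log2 change of -0.11, opposite in sign.

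Among clamp, clamp loader and single-strand binding genes, 2 of 6 were called higher and 0 lower by limma, also at unadjusted p under 0.05. Rpa2, a subunit of the protein RPA that coats single-stranded DNA, had 8.42, 8.36 and 8.40 in stretched and 7.71, 7.76 and 7.94 in unstretched cells (log2 change 0.59, SE 0.09, limma adjusted p = 0.00162). Its groups did not overlap, the level was 1.51-fold higher, and a second probe set changed by 0.58. The clamp loader subunit Rfc4 had 9.57, 9.48 and 9.71 in stretched and 9.13, 8.98 and 9.25 in unstretched cells (log2 change 0.46, SE 0.10, limma adjusted p = 0.0104), and its second probe set changed by 0.54. Pcna, the sliding clamp itself, read 12.91, 12.89 and 12.87 in stretched and 12.79, 12.78 and 12.90 in unstretched cells, with overlap (log2 change 0.07, 95% interval -0.11 to 0.25). For this probe set the interval leaves out changes of the size seen in Rpa2 or Rfc4. It is the only 1 measured for Pcna and very bright, at a mean log2 value of 12.86. Whether a dimmer one would show a larger change, as in Mcm4 and Mcm7, could not be seen. Rpa1, the large RPA subunit, and the loader subunits Rfc3 and Rfc5 had log2 changes of 0.12, 0.19 and 0.18 (limma adjusted p = 0.396, 0.290 and 0.237).

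No polymerase or strand completion gene passed by its brightest probe set, and 0 of 6 were below an unadjusted p of 0.05 in limma. The changes were 0.20 for Pold1, the catalytic subunit of polymerase delta, 0.10 for the flap nuclease Fen1, and 0.08 for Prim1, the primase that lays down RNA primers. They were 0.05 for Pola1, the catalytic subunit of polymerase alpha, -0.01 for DNA ligase 1 (Lig1) and -0.03 for Pole, that of polymerase epsilon. The groups overlapped in Pold1, Pola1, Lig1 and Pole, and did not in Fen1 and Prim1. A dimmer Prim1 probe set read 9.14, 8.89 and 9.15 in stretched and 8.48, 8.38 and 8.60 in unstretched cells (log2 change 0.57, limma adjusted p = 0.00683 over all probe sets). Second probe sets of Pold1 and Fen1 were also called higher, without overlap (log2 changes 0.43 and 0.32, limma adjusted p = 0.0149 and 0.0416 over all probe sets). That of Pold1 was nearly as bright as the first, at a mean of 8.60 against 8.63. The second Pola1 probe set changed by 0.10, not called.

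Of the genes of nucleotide supply, 1 was called higher. Rrm2, the regulated subunit of ribonucleotide reductase, had 11.55, 11.50 and 11.58 in stretched and 11.26, 11.14 and 11.12 in unstretched cells (log2 change 0.37, SE 0.08, limma adjusted p = 0.0130). All 3 of its probe sets rose, by 0.37 to 0.43, although leaving out stretched replicate 1 or 3 ended the call of the brightest (adjusted p = 0.0537 and 0.0520). Rrm1, the large subunit, had a log2 change of -0.06 (95% interval -0.25 to 0.14). Thymidine kinase (Tk1) had 9.47, 9.52 and 9.45 in stretched and 9.23, 9.16 and 9.25 in unstretched cells, without overlap, and lay at the threshold (log2 change 0.26, SE 0.08, limma adjusted p = 0.0505). Its adjusted p was 0.0215 to 0.0351 under 5 of the 16 other settings and up to 0.157 under the rest. Thymidylate synthase (Tyms), measured near the dim end of the set, had 6.44, 5.84 and 6.40 in stretched and 6.73, 6.32 and 6.63 in unstretched cells, which overlapped (log2 change -0.33, SE 0.16, limma adjusted p = 0.206). In all, 1 of 4 was called higher and 0 lower, and 2 and 0 at unadjusted p under 0.05.

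Genes that copy chromatin marks and nucleosomes moved in both directions. Uhrf1, which reads hemimethylated DNA behind the fork, had 10.31, 10.30 and 10.44 in stretched and 9.76, 9.92 and 10.08 in unstretched cells (log2 change 0.43, SE 0.10, limma adjusted p = 0.0157). Dnmt1, the maintenance methyltransferase that Uhrf1 recruits, had 10.31, 10.44 and 10.39 in stretched and 10.04, 9.94 and 10.13 in unstretched cells (log2 change 0.35, SE 0.09, limma adjusted p = 0.0234). Both pairs of groups were separate. Chaf1b, a subunit of the histone chaperone CAF-1, had 8.85, 8.78 and 8.62 in stretched and 9.33, 9.06 and 9.19 in unstretched cells, with all stretched values below. Its level was 1.36-fold lower: it fell by 0.44 on the log2 scale (SE 0.10, limma adjusted p = 0.0130). Leaving out stretched replicate 3 ended the calls of Uhrf1 (adjusted p = 0.0681), Chaf1b (0.0592) and Dnmt1 (0.0739). The Uhrf1 call was also lost without unstretched replicate 1 (0.0516) and with probe sets averaged (0.0580), and that of Dnmt1 without stretched replicate 2 (0.0890), unstretched replicate 1 (0.0532) or 2 (0.0778), and under quantile normalization again (0.0650) or cyclic loess (0.0581).

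**Figure D4:**
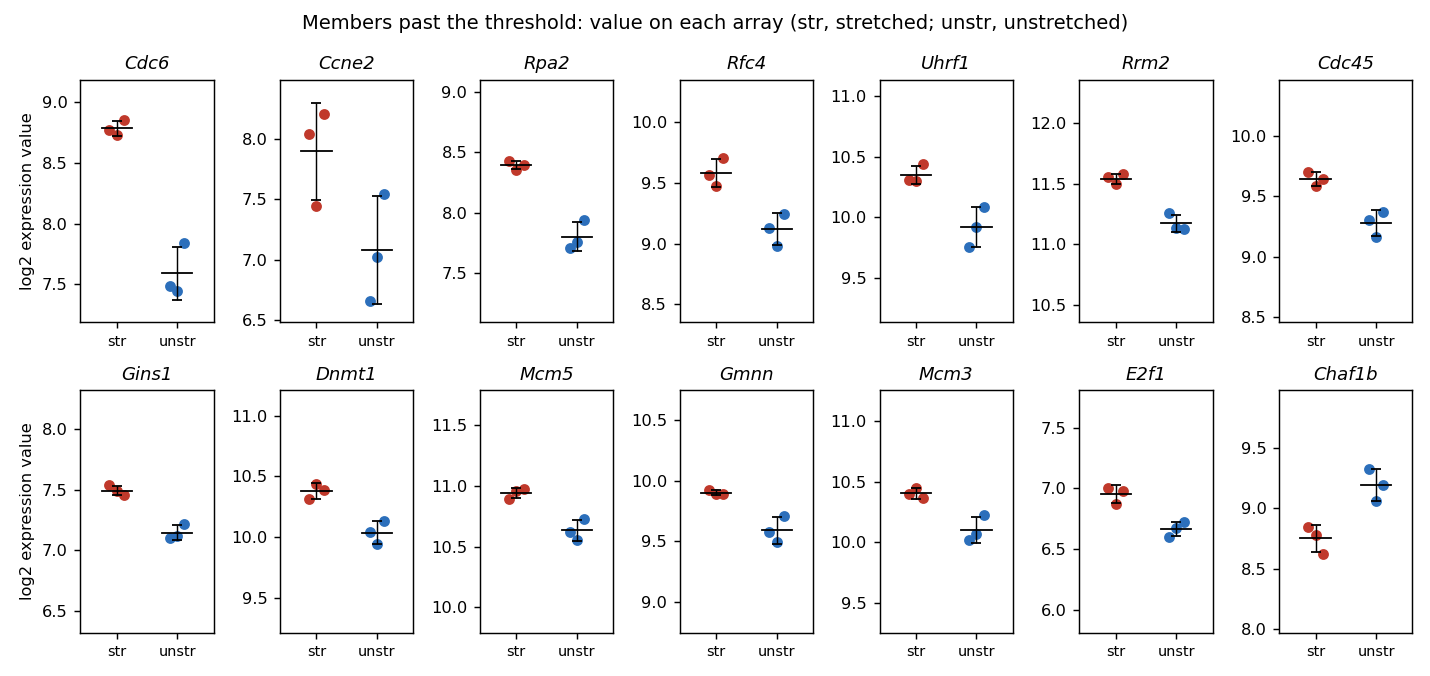
Log2 expression value on each array for the 14 genes past the threshold, stretched at left and unstretched at right in each panel, with the mean (line) and SD (bar, n = 3). The vertical axes all span the same log2 range around each gene's own level, and the groups are separate in every gene shown except Ccne2, where the lowest stretched value (7.44) lies below the highest unstretched one (7.55).

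Of the regulators, the second E-type cyclin and an activating E2F were called higher. Ccne2, a cyclin that activates Cdk2 at the start of S phase, had 8.04, 7.44 and 8.20 in stretched and 6.66, 7.03 and 7.55 in unstretched cells. These values were the most scattered of the set and they overlapped (log2 change 0.82, SE 0.23, 95% interval 0.32 to 1.32, limma adjusted p = 0.0335). Leaving out stretched replicate 1 or 3 ended the call (adjusted p = 0.115 and 0.134), as did leaving out unstretched replicate 1 or 2 (0.112 and 0.0954) and a trended robust prior (0.0756). Ccne1, its close relative, had a log2 change of 0.02 (95% interval -0.22 to 0.26). E2f1 had 7.01, 6.87 and 6.98 in stretched and 6.60, 6.67 and 6.72 in unstretched cells, without overlap (log2 change 0.29, SE 0.08, limma adjusted p = 0.0436). That call ended without any 1 stretched array or without unstretched replicate 1 or 2 (adjusted p = 0.0635 to 0.152), and under quantile normalization again (0.0788), cyclic loess (0.0676), averaged probe sets (0.148), every probe set tested (0.0613) and a trended robust prior (0.0868). E2f2 and Mybl2, a transcription factor of the same program, had log2 changes of -0.04 and -0.02 (limma adjusted p = 0.831 and 0.920), while a dimmer E2f2 probe set read 5.39, 5.31 and 5.18 in stretched and 4.30, 4.73 and 4.91 in unstretched cells (log2 change 0.65, limma adjusted p = 0.0168 over all probe sets). In this role 2 of 5 were called higher and 0 lower by limma, also at unadjusted p under 0.05.

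The level of the probe sets matters for reading these counts, since stretched arrays had the wider spread. Of the 41 genes, 31 lay among the brightest 4548 of all genes, where 16.1% were called higher and the median log2 change was 0.04. Among those 31 genes, 9 were called higher and the median was 0.12. The other genes called higher, Rpa2, Ccne2, Gins1 and E2f1, were dimmer, at mean log2 values of 8.10, 7.49, 7.32 and 6.81. The part of the wider spread in the smaller changes was not tested beyond the scaling alternatives, of which quantile normalization again and cyclic loess each left the same 8 of the 13 called higher: Cdc6, Cdc45, Gins1, Rfc4, Rpa2, Rrm2, Uhrf1 and Ccne2.

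**Figure D5:**
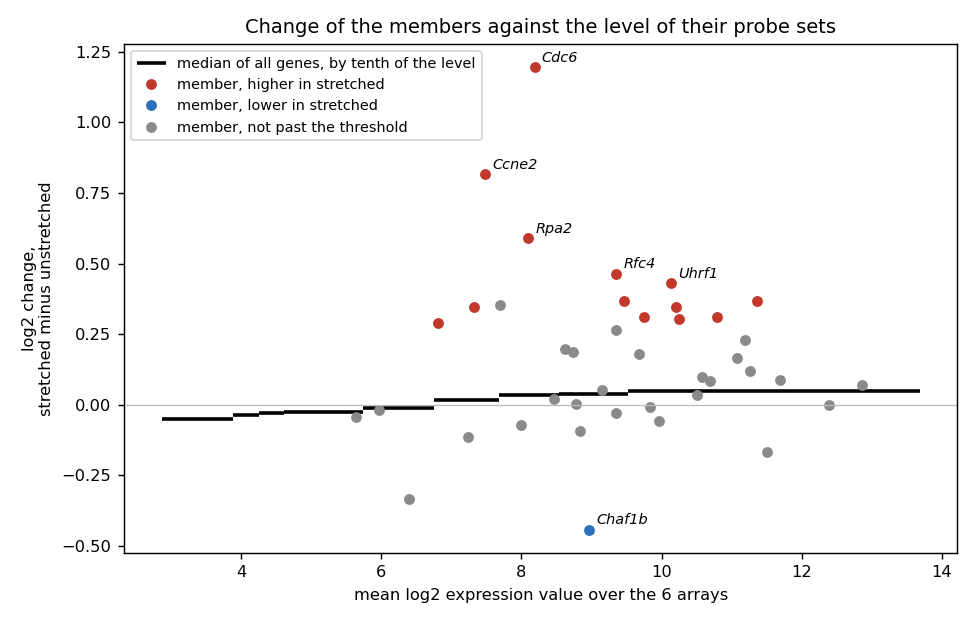
Log2 change of the 41 genes, stretched minus unstretched, against the mean log2 value of their probe set over the 6 arrays, with the median change of all genes in each of 10 equal bins of the level as a black bar. The medians run from -0.05 in the dimmest bin to 0.05 in the brightest, and Cdc6, Ccne2 and Rpa2 stand far above them.

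Within groups the 41 genes tended to move together by array. On stretched replicates 1, 2 and 3, 27, 15 and 25 of the 41 lay above their group mean, against 53.3%, 55.2% and 40.8% of all genes. In unstretched replicate 2 only 5 of the 41 did, against 48.5% of all genes, and in unstretched replicate 3, 31 of the 41 did, against 47.9%. The median deviation of the 41 genes from their group mean was 0.02, -0.03 and 0.01 on stretched replicates 1, 2 and 3, and 0.02, -0.08 and 0.06 on the unstretched ones, beside the median change of 0.12 between groups. Those of unstretched replicates 2 and 3 exceed in size the 0.048 found between groups under quantile normalization again and cyclic loess. With median centring the change between groups was 0.15. The deviations were computed on the deposited values only, so the scales differ. This is a description, since genes of an array are not independent.

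Further replication genes, listed beside the 41 from the same pathway, gave a mixed picture. Of 65 measured, 10 were called higher and 3 lower by limma, 15.4% and 4.62%, beside the 7.98% and 6.76% of all genes, and their median log2 change was 0.07. Many of the 65 are as bright as the brightest 4548 of all genes, where 16.1% were called higher and 9.39% lower. Nucleotide metabolism held 3 of the rises: deoxycytidine kinase (Dck) rose by 0.82 (SE 0.11, adjusted p = 7.73e-04), dUTPase (Dut) by 0.57 (SE 0.09) and the dNTP hydrolase Samhd1 by 0.55 (SE 0.09). Lin9 and Lin54, subunits of the MuvB complex that represses or activates cell cycle genes, rose by 0.74 (SE 0.09) and 0.70 (SE 0.11). At the fork, the checkpoint mediator Clspn rose by 0.55 (SE 0.09) and the scaffold Topbp1 by 0.51 (SE 0.09). The chromatin remodeller Hells rose by 0.69 (SE 0.12), and Rbbp4, a histone chaperone that is also a subunit of CAF-1, rose by 0.43 (SE 0.11). The origin recognition subunits Orc5 and Orc3 fell by 0.39 (SE 0.09) and fell by 0.32 (SE 0.09), and the flap nuclease Dna2 fell by 0.40 (SE 0.11). With all probe sets averaged, Lin54 (adjusted p = 0.0516), Samhd1 (0.319), Topbp1 (0.577), Rbbp4 (0.994) and Orc3 (0.518) did not pass, nor did Rbbp4 with unsuffixed probe sets preferred (0.744) or Orc3 with median centring (0.0507). The falls of Orc5, Orc3 and Dna2 each ended without stretched replicate 2 (0.0698, 0.113 and 0.116) or unstretched replicate 1 (0.0564, 0.0853 and 0.0522). Those of Orc3 and Dna2 also ended without stretched replicate 1 (0.140 and 0.105), that of Orc5 without stretched replicate 3 (0.0537), that of Dna2 without unstretched replicate 3 (0.0796) and that of Orc3 without unstretched replicate 2 (0.0827). The Rbbp4 call ended without any 1 stretched array (0.0514 to 0.0714) or unstretched replicate 1 (0.0502).

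Genes of mitosis and brakes of the cell cycle are given for context. Of 11 mitosis genes, 1 (9.09%) was called higher and 0 lower by limma, and 5 and 0 at unadjusted p under 0.05. Among all 18193 genes 7.98% were called higher and 6.76% lower, and 2611 and 2446 genes were under that unadjusted p. The 1 mitosis gene called was the spindle motor Kif11 (log2 change 0.40, SE 0.11), named after its value was seen. The Kif11 call ended without any 1 stretched array or unstretched replicate 1 or 2 (adjusted p = 0.0596 to 0.120), and under quantile normalization again (0.0704), cyclic loess (0.0606) and averaged probe sets (0.0665). Of 10 CDK inhibitors and D cyclins, 3 were called higher and 1 lower, beside the same 7.98% and 6.76% of all genes. The inhibitors Cdkn1b, Cdkn2d and Cdkn2b rose by 0.80 (SE 0.12), 0.61 (SE 0.10) and 0.60 (SE 0.13), and the G1 cyclin gene Ccnd1 fell by 0.96 (SE 0.20). Leaving out stretched replicate 1 or 3 ended the Cdkn2b call (adjusted p = 0.0588 and 0.0568).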

How the data were processed

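The authors deposited 1 log2 expression value per probe set and array for 6 arrays, made with RMA per the submitters' processing notes (version and build: not given in the sources used here). RMA sets array levels equal and compresses changes of dim probe sets. Without scanner data, signal above background could not be judged. The number of arrays limits the precision.

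Of 45101 probe sets, 64 controls were left out. Genes came from the platform annotation, 34945 probe sets with 1 symbol, of which 34741 matched a RefSeq gene ID. 932 had several symbols, and 9160 were not listed and stay unnamed. Groups and replicate numbers came from the titles. The difference (stretched minus unstretched) came from limma 3.58.1 in R 4.3.3, with lmFit, eBayes and no covariates, over 18193 genes, with a Benjamini-Hochberg adjusted p under 0.05 as the call, and tested on simulated data. Alternatives were replicate blocks, each array left out, scalings, a filter on dim genes, other probe set choices and another prior.

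Members and lists were chosen with earlier results of these data known. All 41 genes measured are named; of the further replication genes, the 12 called with the largest moderated statistics; of the context list, the 4 with the largest, plus Kif11, named after its value was seen. Promoters are RefSeq's, GRCm38.p6.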

Additional observations from a re-analysis of the deposited data

How the results depend on the processing

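Of the 14 calls, 3 (Cdc6, Rfc4 and Rpa2) held under all 16 alternatives, 11 were lost under at least 1, and 0 changed sign. With 1 array left out, 4 to 14 genes were called higher and 0 to 1 lower, and 0 to 3 of the further replication genes were called lower. Such fits have fewer arrays, and they called fewer of all genes higher too (872 to 1450 of 18193, against 1452). Under cyclic loess and under quantile normalization again, 8 were called higher each time, beside 6.55% and 6.30% of all genes, and quantile normalization raised the further genes called lower to 6; the cause was not tested. Splits of all calls moved too: 1191 higher and 1483 lower under cyclic loess, 1147 and 1546 with quantile normalization again, 1669 and 1025 with median centring, against 1452 and 1229.

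With the replicate number as a block, 14 were called higher and 2 lower (Tyms joined, adjusted p = 0.0294). Deviations of same-numbered arrays from their group means correlated at 0.02, 0.15 and 0.28, and stretched replicate 1 correlated better with unstretched replicate 2 (0.06) than with its own number, while the other stretched arrays correlated best with their own. Whether a number marks a shared batch was not settled.

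Among genes not called, 16 changed sign under some alternative. With probe sets averaged, log2 changes were 0.026 for Orc2, 0.062 for Mcm2, 0.28 for Mcm7, 0.14 for Mcm10, -0.046 for Gins2, 0.13 for Gins3 and 0.30 for E2f2. With unsuffixed probe sets preferred they were 0.26 for Mcm7 and -0.092 for Gins2. With quantile normalization again they were -0.064 for Orc6, -0.0048 for Mcm4, -0.075 for Gins2, -0.017 for Pcna, -0.030 for Pola1, -0.0031 for Prim1 and -0.056 for Ccne1. With cyclic loess they were -0.038 for Orc6, -0.065 for Gins2, -0.00088 for Pcna, -0.017 for Pola1 and -0.042 for Ccne1. With median centring they were 0.028 for Mcm7, 0.021 for Lig1 and 0.010 for Mybl2. With 1 array left out they ran from -0.0495 to 0.0506 for Mcm7, -0.0861 to 0.0642 for Gins2, -0.23 to 0.0374 for Gins3, -0.0281 to 0.0931 for Pola1, -0.0859 to 0.0445 for Pole, -0.0484 to 0.0479 for Lig1, -0.0898 to 0.117 for Ccne1, -0.131 to 0.00428 for E2f2 and -0.0576 to 0.0377 for Mybl2.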
